A study of Homo sapiens with 93 samples.

Results

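Trimethylation of lysine 36 on histone H3 (H3K36me3) marks the bodies of transcribed genes, where reader proteins recognise it. The level of H3K36me3 is described here on the genes of 9 readers of H3K36 methylation. These are DNMT3A, DNMT3B, PSIP1, HDGFL2, MSH6, ZMYND11, MORF4L1, BRPF1 and GLYR1. They were picked by Ensembl identifier for the known role of their proteins, by a rule that uses no measured value, and all 9 were found among the 14000 features of the table. The mark was profiled by CUT&Tag, in which an antibody tethers a transposase to chromatin and the DNA it cuts is sequenced. The samples were 93 human lymphoblastoid cell lines, B cells immortalised with Epstein-Barr virus, with 1 library per line. All lines form 1 group, for which the labels give no genotype, treatment or time, so the comparisons are between lines and between genes. Lines were cultured with 20% FBS, 100000 cells of each were frozen, and the assay used polyclonal antibodies and 14 cycles of PCR.

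Most readers hold methylated H3K36 through a PWWP domain, a small fold named after a run of proline and tryptophan residues. DNMT3A and DNMT3B are the de novo DNA methyltransferases, and the PWWP domain of DNMT3B is known for directing DNA methylation to gene bodies. PSIP1 (LEDGF) and HDGFL2 (HRP2) are related chromatin-binding proteins that help polymerase through nucleosomes, and PSIP1 also tethers the HIV integrase. MSH6 is the subunit that brings the mismatch repair dimer to marked chromatin. ZMYND11 binds the mark on a replacement form of histone H3 and acts on transcription elongation. MORF4L1 (MRG15) reads it through a chromodomain and serves acetyltransferase and deacetylase complexes. BRPF1 is the scaffold of the MOZ and MORF acetyltransferases, and GLYR1 is a nucleosome-destabilising factor that travels with polymerase. The data hold the mark on these genes and not the binding of their proteins or the level of their RNA.

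Library totals ran from 2842955 to 24325746 counts, with a median of 14883653. The median feature had between 114 and 1022 counts in a library. Chi-square per degree of freedom between the counts of any of 4278 pairs of libraries was 5.85 or more, so no library looked like a second deposit of another. Cells were grown in 4 batches of about 20 to 35 lines, per the labels' protocols. The labels do not give each line's batch, so batch, culture and line cannot be told apart. Markers of B cells could not be checked, because no identifier other than those of the 9 genes could be paired with a symbol.

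The stretches upstream of 5 readers are shown, from 2 of the groups whose marks varied together across lines, PSIP1 with MSH6 and MORF4L1, and HDGFL2 with BRPF1. DNMT3B and ZMYND11 also varied together. They are given by their composition alone, because the only listed window of DNMT3B does not lie at its outermost start. Each is the 250 bases 5′ of the outermost RefSeq start (GRCh38.p14), read on the gene's own strand. Capitals mark every copy, on either strand, of the GC box (GGGCGG), the CCAAT box (CCAAT) and the E-box (CACGTG).
PSIP1: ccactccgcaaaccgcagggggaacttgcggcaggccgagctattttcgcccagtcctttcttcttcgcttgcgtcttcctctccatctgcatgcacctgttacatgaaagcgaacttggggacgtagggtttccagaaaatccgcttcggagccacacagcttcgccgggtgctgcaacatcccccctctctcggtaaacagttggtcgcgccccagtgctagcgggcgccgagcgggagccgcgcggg
MSH6: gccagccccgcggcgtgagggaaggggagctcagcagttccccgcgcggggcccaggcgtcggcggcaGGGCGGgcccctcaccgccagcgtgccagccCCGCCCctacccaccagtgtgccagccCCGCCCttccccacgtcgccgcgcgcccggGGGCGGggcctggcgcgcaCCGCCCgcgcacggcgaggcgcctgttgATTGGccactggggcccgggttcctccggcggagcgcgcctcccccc
MORF4L1: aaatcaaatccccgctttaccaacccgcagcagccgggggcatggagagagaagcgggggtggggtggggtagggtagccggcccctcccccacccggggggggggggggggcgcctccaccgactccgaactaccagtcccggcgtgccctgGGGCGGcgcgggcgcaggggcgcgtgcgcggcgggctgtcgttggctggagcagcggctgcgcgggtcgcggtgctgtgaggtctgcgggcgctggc
HDGFL2: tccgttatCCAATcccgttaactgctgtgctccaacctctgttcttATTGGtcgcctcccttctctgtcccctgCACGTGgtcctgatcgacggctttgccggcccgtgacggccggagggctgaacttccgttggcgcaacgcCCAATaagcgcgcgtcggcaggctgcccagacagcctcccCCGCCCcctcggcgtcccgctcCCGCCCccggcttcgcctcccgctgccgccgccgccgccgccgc
BRPF1: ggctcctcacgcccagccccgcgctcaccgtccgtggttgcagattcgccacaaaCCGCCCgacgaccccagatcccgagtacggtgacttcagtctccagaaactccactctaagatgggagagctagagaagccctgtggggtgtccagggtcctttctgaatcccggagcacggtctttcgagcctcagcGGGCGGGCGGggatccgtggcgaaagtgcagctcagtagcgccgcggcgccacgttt
The windows are chr9:15510971-15511220 on the minus strand, and chr2:47782895-47783144, chr15:78872640-78872889, chr19:4472047-4472296 and chr3:9731485-9731734 on the plus strand. The MSH6 window held 5 GC boxes and 1 CCAAT box. The BRPF1 window held 3 GC boxes, of which a pair overlaps, and the MORF4L1 window held 1. The HDGFL2 window held 2 GC boxes, 3 CCAAT boxes and 1 E-box. The PSIP1 window held none of these letters. Among the windows of 27305 genes, 42.2% held a GC box, 33.03% a CCAAT box and 6.46% an E-box. Searches for TATAAA (11.2% of all windows), the ETS letters CCGGAAG (8.78%), the NRF1 motif (1.13%) and the E2F motif (0.974%) found none in these 5. The share of G and C was 61.6% for PSIP1, 81.2% for MSH6, 75.6% for MORF4L1, 69.6% for HDGFL2 and 64% for BRPF1, against a median of 57.6% over all windows. CG dinucleotides numbered 23, 34, 28, 31 and 24 in the same order, against a median of 10. The ZMYND11 window had 4 CG dinucleotides and 41.6% G and C, and the DNMT3B window 3 and 64%. The DNMT3B window lies inside the gene, away from its outermost start. ZMYND11 has 8 listed starts, DNMT3A 6 and MSH6 4, of which only the outermost was used. These values therefore do not cover the other starts of such genes. GLYR1, which was not called as varying together with any other reader, had the most CG dinucleotides, 40. DNMT3A, which was also not called with any other reader, had 12. Whether CG content goes with which readers varied together was not tested. No motif searched for was common to the 5 windows printed.

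All 9 reader genes carried counts in every line. Levels are given as CPM, counts brought to a common library total with TMM factors, and divided by the length in kilobases of the gene's RefSeq span. The interval that the authors counted over was not given in the sources used here, so the scale per kilobase assumes that it follows the span. BRPF1 (ENSG00000156983.16, chr3:9731735-9748015) and MSH6 (ENSG00000116062.17, chr2:47783145-47810101) stood highest. BRPF1 had a lowest level of 4.11, a median of 6.42 and a highest of 8.05 CPM per kilobase. MSH6 ran from 4.29 to 7.98 with a median of 5.91 CPM per kilobase. BRPF1 exceeded MSH6 in 61 of 93 lines, by 0.11 ± 0.29 log2 (SD), a step smaller than its spread between lines. Whether the mean levels of neighbours in this order differ was not tested.

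DNMT3A (ENSG00000119772.16, chr2:25227874-25342590) followed, from 2.15 to 5.26 with a median of 3.63 CPM per kilobase. It lay below MSH6 in 92 of 93 lines. PSIP1 (ENSG00000164985.15, chr9:15464066-15510970) ran from 1.74 to 5.23 with a median of 3.12 CPM per kilobase, and HDGFL2 (ENSG00000167674.15, chr19:4472297-4502207), its relative, from 1.68 to 3.26 with a median of 2.55. The steps between DNMT3A, PSIP1 and HDGFL2, of 0.25 ± 0.51 and 0.30 ± 0.51 log2 (SD, n = 93), were smaller than their spread between lines. HDGFL2 exceeded GLYR1 in 87 of 93 lines.

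GLYR1 (ENSG00000140632.17, chr16:4803203-4847288) ran from 1.55 to 2.69 with a median of 1.97 CPM per kilobase, and MORF4L1 (ENSG00000185787.15, chr15:78872890-78898139) from 1.39 to 2.97 with a median of 1.85. These adjacent levels also overlapped, with GLYR1 higher in 62 of 93 lines. The lowest levels were those of ZMYND11 and DNMT3B. ZMYND11 (ENSG00000015171.19, chr10:130088-254637), the longest of the 9, ran from 0.356 to 0.783 with a median of 0.514 CPM per kilobase, below MORF4L1 in 93 of 93 lines. DNMT3B (ENSG00000088305.18, chr20:32762385-32809356) ran from 0.198 to 0.629 with a median of 0.368 CPM per kilobase, and lay below ZMYND11 in 90 of 93 lines. The paralogous methyltransferases were thus far apart, with the highest DNMT3B level under the lowest DNMT3A level.

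**Figure D1:**
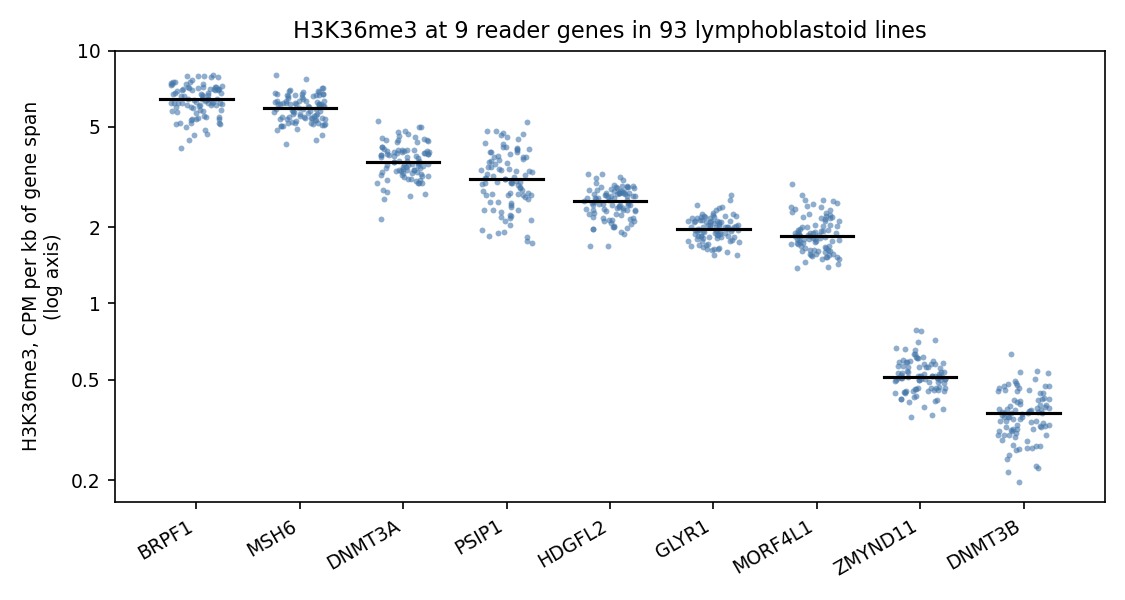
H3K36me3 on the 9 reader genes in 93 lines, as CPM per kilobase of RefSeq span on a log axis, with 1 point per line. BRPF1 and MSH6 stand highest and ZMYND11 and DNMT3B lowest, and no DNMT3B point reaches the DNMT3A points.

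The order can also hold where a gene lies in the table. The general level changes along its rows, and the median of the 300 rows around each reader ran from 4.62 log2 CPM at HDGFL2 to 6.04 at MSH6. On the scale of CPM per feature, with no division by length, the percentile of 7 of 9 readers moved beyond its spread when it was taken among these rows in place of all features. ZMYND11 stood at percentile 52.3 of its neighbouring rows and 64.4 of all features, and MORF4L1 at 63 and 54.4, so these genes changed places. Levels per kilobase relative to neighbouring rows were not computed, since the lengths of those features are not known. None of the 9 lies in the rows after 1900 up to 3200, where counts step down at a row that differs between libraries.

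Before depth was taken into account, PSIP1 varied most between lines, with 149 ± 38.4 CPM (SD, n = 93), a coefficient of variation of 25.8% and a 3.0-fold range. DNMT3B followed with 17.3 ± 3.78 CPM (21.8%) and a 3.18-fold range. GLYR1 varied least, with 87.5 ± 9.82 CPM (11.2%) and a 1.74-fold range, next to MSH6 with 160 ± 19.01 CPM (11.9%). The other 5 had coefficients of variation between 13.7% and 17.1%. DNMT3B had the fewest counts, from 29 to 548 with a median of 244, and counting error alone gives 6.40% at that median. For the other 8 it was 1.24% to 3.83% at the median count. PCR duplicates may be among the reads, so these errors cover counting only.

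None of the 9 readers was called as more variable between lines than the dispersion trend at its level. With library total and dynamic range as covariates, edgeR's goodness-of-fit test called 0 of 9, against 18.6% of all features tested. At an unadjusted p under 0.05 it also found 0 of 9, against 22%. DESeq2 listed 0 of 9 as dispersion outliers, against 242 of 13915 features. With only 9 genes, none of these shares is large enough for 0 of 9 to stand out. Dynamic range is the gap, in log2 CPM, between a library's medians over the quintiles of features with the highest and the lowest mean level, and it ran from 4.25 to 5.07 between libraries. The log2 ratio of a feature's own dispersion to the trend had a median of -1.39 for the readers and -0.51 for all features. All 9 ratios were below 0, as were 67.96% of all ratios.

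GLYR1 was the steadiest, with a biological coefficient of variation of 7.17% where the trend gives 16.02%. Its log2 ratio of -2.32 stood at percentile 1.02 of all features. HDGFL2 (8.51%), MSH6 (8.59%) and BRPF1 (9.18%) came next, where the trend gives 15.7% to 16.1%. PSIP1 stood closest to the trend, at 14.2% against 15.7%. Its ratio of -0.28 was above the median of all features, at percentile 58.4, while the other 8 lay below that median. With no covariates PSIP1 was called variable, and it was the only 1 of the 9 that was, against 3159 of 13915 features.

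**Figure D2:**
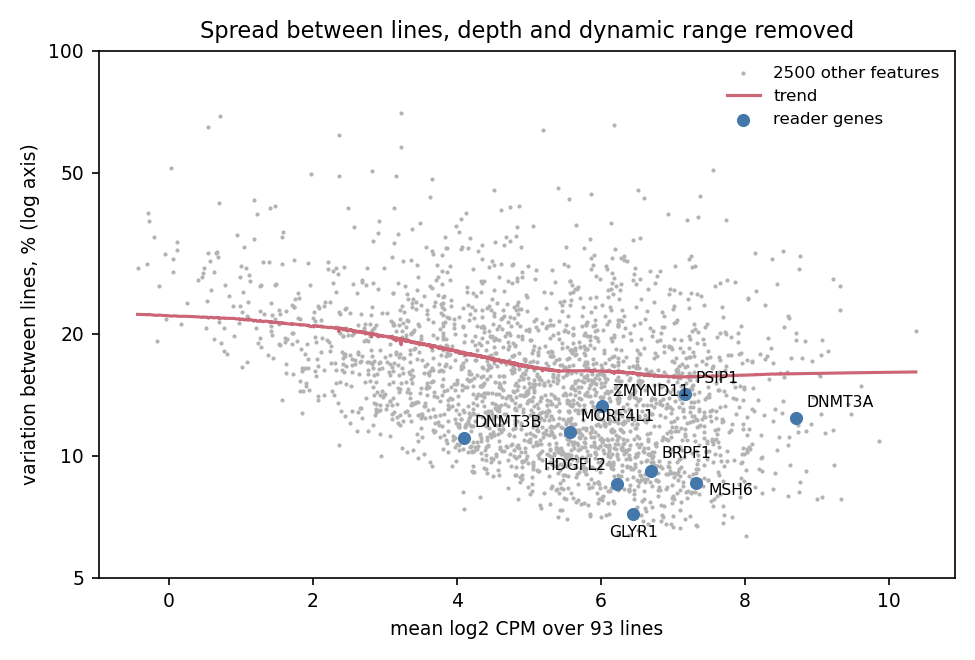
Biological coefficient of variation between lines (percent, log axis) against mean log2 CPM, with 2500 other features in grey, the trend as a line and the 9 reader genes labelled. All 9 lie below the trend, GLYR1 lowest relative to it and PSIP1 closest to it.

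Much of what did vary went with library total and dynamic range, which are both computed from the same counts. The cause was not tested. Library total and dynamic range together explained 70.5% of the variance of PSIP1, 67.9% of DNMT3B and 20.4% of ZMYND11. The median over the readers was 57.8%, against 35.7% over all features. Removing 10 principal components of the table took 92.8% of the variance of PSIP1 and 68.4% of that of DNMT3A. The median over all features was 65.6%, and the components come from the same table, these genes included.

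DNMT3B and PSIP1 moved in opposite directions with the dynamic range of the library. DNMT3B fell by 1.58 ± 0.13 log2 CPM (SE) per log2 unit of dynamic range (adjusted p = 1.13e-19, edgeR's quasi-likelihood test), and PSIP1 rose by 1.12 ± 0.15 (adjusted p = 4.70e-11). GLYR1 rose by 0.80 ± 0.08, BRPF1 by 0.68 ± 0.10, MSH6 by 0.41 ± 0.09, DNMT3A by 0.37 ± 0.12 and HDGFL2 by 0.36 ± 0.09. ZMYND11 fell by 0.39 ± 0.14. MORF4L1 had a slope of 0.24 ± 0.12 and did not pass (adjusted p = 0.0616). It passed without the 10 libraries of lowest total (0.32, adjusted p = 0.0213) and with no depth covariate (0.65, adjusted p = 6.10e-06), where DNMT3A, HDGFL2, BRPF1 and ZMYND11 did not (adjusted p = 0.215 to 0.765). DNMT3A did not pass when the rows after 1900 up to 3200 were left out (0.22, adjusted p = 0.0852). These are 8 of 9 readers, against 80% of all features, so the count is near the background. In the positive direction they were 6, against 44.5% of all features, and in the negative direction 2, against 35.5%. By construction of the dynamic range, features of high level tend to have positive slopes. PSIP1, MSH6 and DNMT3A are themselves in the quintile of highest level that defines it. The median slope was 0.53 in the level decile of PSIP1 and -0.22 in that of DNMT3B. Within these deciles the PSIP1 slope stood at percentile 89.7 and the DNMT3B slope at percentile 20.7.

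Within the 47 deeper libraries all 9 slopes kept their sign and 8 passed, with MORF4L1 gained (adjusted p = 0.00598) and HDGFL2 lost (0.19, adjusted p = 0.134). Within the 46 shallower ones 8 kept their sign and 5 passed. The DNMT3B slope was -1.78 ± 0.17 (SE) in the deeper and -1.54 ± 0.20 in the shallower libraries. The PSIP1 slope was 1.32 ± 0.18 and 0.70 ± 0.20. The MORF4L1 slope was 0.42 ± 0.14 in the deeper libraries and -0.18 ± 0.20 in the shallower ones.

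Depth itself went with 8 of 9 readers, against 65% of all features, 4 in the positive direction (29.2%) and 4 in the negative direction (35.8%). Per doubling of the library total, HDGFL2 and BRPF1 were each higher by 0.22 ± 0.02 log2 CPM (SE), DNMT3A by 0.21 ± 0.03 and GLYR1 by 0.11 ± 0.02. PSIP1 fell by 0.21 ± 0.03, MORF4L1 by 0.17 ± 0.03, ZMYND11 by 0.15 ± 0.03 and MSH6 by 0.08 ± 0.02. DNMT3B, at -0.03 ± 0.03, did not pass (adjusted p = 0.363, edgeR). All 9 slopes kept their sign among the 46 shallower libraries, where 6 passed, and among the 47 deeper ones, where 2 passed. DNMT3B was 1 of those 2, with -0.39 ± 0.14 in the deeper libraries (adjusted p = 0.0312) and -0.06 ± 0.06 in the shallower ones (adjusted p = 0.426). The related genes PSIP1 and HDGFL2 thus differed in sign, and PSIP1 rose with dynamic range but fell with depth.

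**Figure D3:**
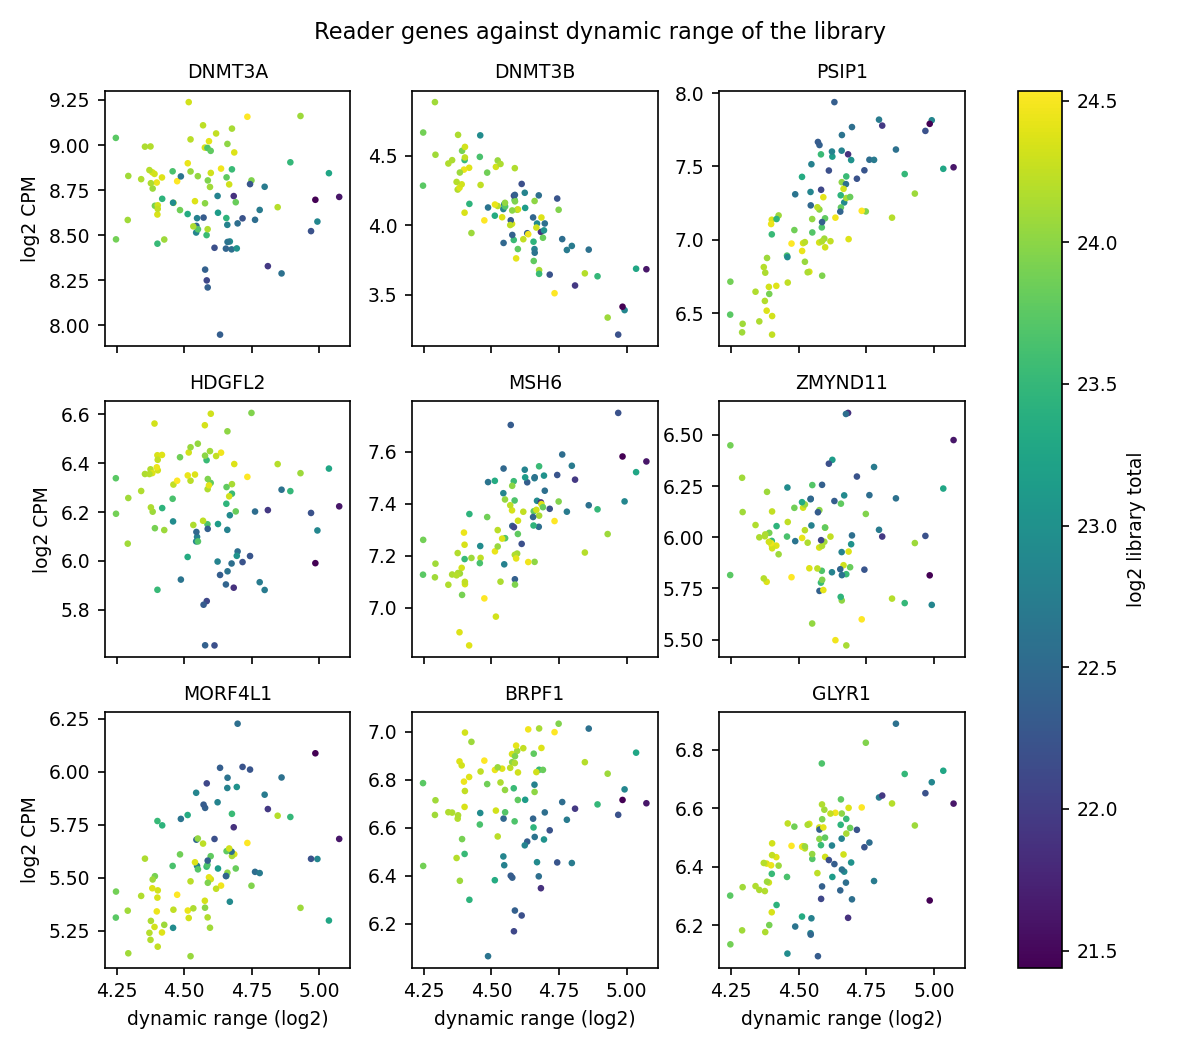
Level of each reader gene (log2 CPM) against the dynamic range of the library (log2), with 1 point per line coloured by log2 library total. DNMT3B falls and PSIP1 rises along the axis. Levels are drawn without adjustment for library total. The MORF4L1 slope passed edgeR's test without that covariate (0.65, adjusted p = 6.10e-06) and did not pass with it.

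With total and dynamic range removed, some readers still rose and fell together. Of the 36 pairs, 10 were called, 5 positive and 5 negative, where a pair needed both directions of the edgeR fit to pass after adjustment over all 13914 other features. Depending on the reader, between 0.597% (DNMT3A) and 51% (ZMYND11) of all features were called in its fit. The adjusted p given for a pair is the larger of the 2.

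PSIP1 was in the pair with the highest r. Its residuals ran from -0.61 to 0.48 log2 CPM, with a median near 0. Lines with a higher PSIP1 mark had a higher MSH6 mark, with Pearson's r = 0.45 (adjusted p = 0.000221) and Spearman's rho = 0.45 (permutation p = 1e-05, the smallest the permutations can give, n = 93). Without the 2 lines farthest from the median PSIP1 value r was also 0.45. PSIP1 and MORF4L1 had r = 0.45 and rho = 0.42 (adjusted p = 0.000119), and r = 0.40 without 2 lines. Of the 10 lines highest in each, 3 were shared, and of the 10 lowest, 5. MSH6 and MORF4L1 completed the trio with r = 0.27 and rho = 0.28 (adjusted p = 0.0325).

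DNMT3B ran opposite to this trio and together with ZMYND11. DNMT3B had r = -0.38 with PSIP1 (rho = -0.36, adjusted p = 0.000806), r = -0.28 with MSH6 (adjusted p = 0.0330) and r = -0.25 with MORF4L1 (adjusted p = 0.0478). With ZMYND11 it had r = 0.37 and rho = 0.36 (adjusted p = 0.00138). ZMYND11 in turn had r = -0.38 with MORF4L1 (adjusted p = 0.00112) and r = -0.26 with PSIP1 (adjusted p = 0.0260). ZMYND11 and MSH6 were not called, with r = -0.03.

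HDGFL2 and BRPF1 rose and fell together, with r = 0.36, rho = 0.35 (adjusted p = 0.0238) and r = 0.34 without 2 lines. Without the 10 libraries of lowest total r was 0.29 and the pair was not called (adjusted p = 0.155). HDGFL2 also had r = -0.28 with MORF4L1, which was not called (adjusted p = 0.0712). That pair was called in 6 of 13 alternatives, as many as HDGFL2 with BRPF1, among them DESeq2's size factors (adjusted p = 0.0362) and the deposited scores (adjusted p = 0.00311). DNMT3A and GLYR1, the methyltransferase and the nucleosome-destabilising factor, were in no called pair. The paralogues were not called as pairs. DNMT3A and DNMT3B had r = -0.10 (adjusted p = 0.705), and PSIP1 and HDGFL2 had r = -0.27, where only 1 direction of the fit passed (adjusted p = 0.103 for the other). PSIP1 with HDGFL2 was called in 3 of 13 alternatives, each time with r below 0.

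**Figure D4:**
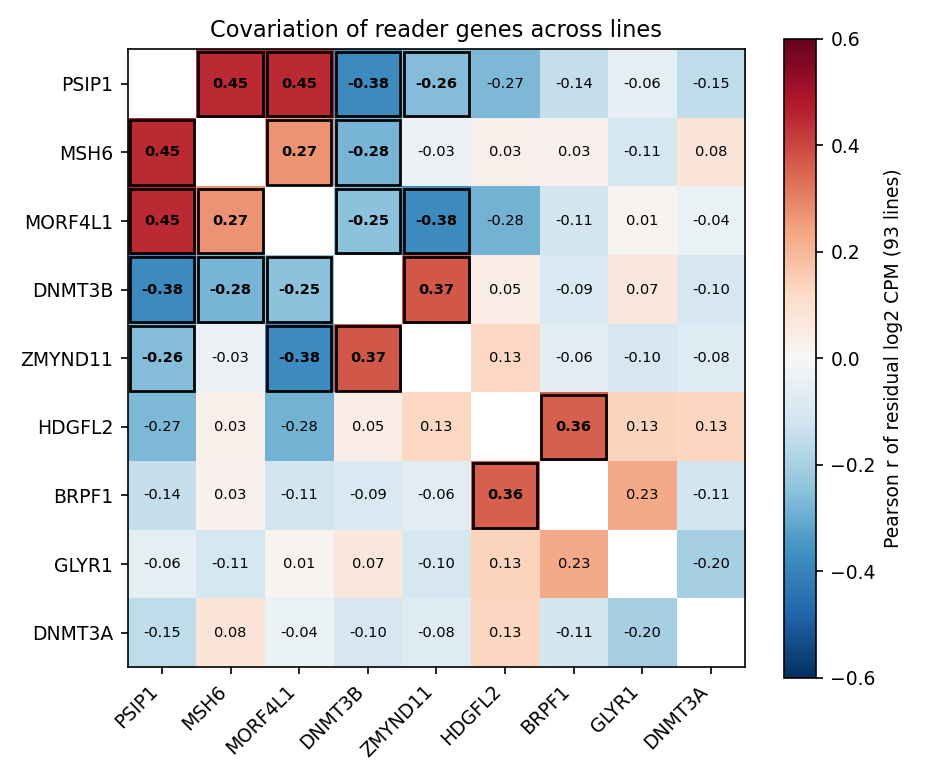
Pearson's r between reader genes over 93 lines, after library total and dynamic range were removed, with called pairs marked. PSIP1, MSH6 and MORF4L1 are positive among themselves and negative with DNMT3B, and DNMT3A and GLYR1 have no called pair.

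**Figure D5:**
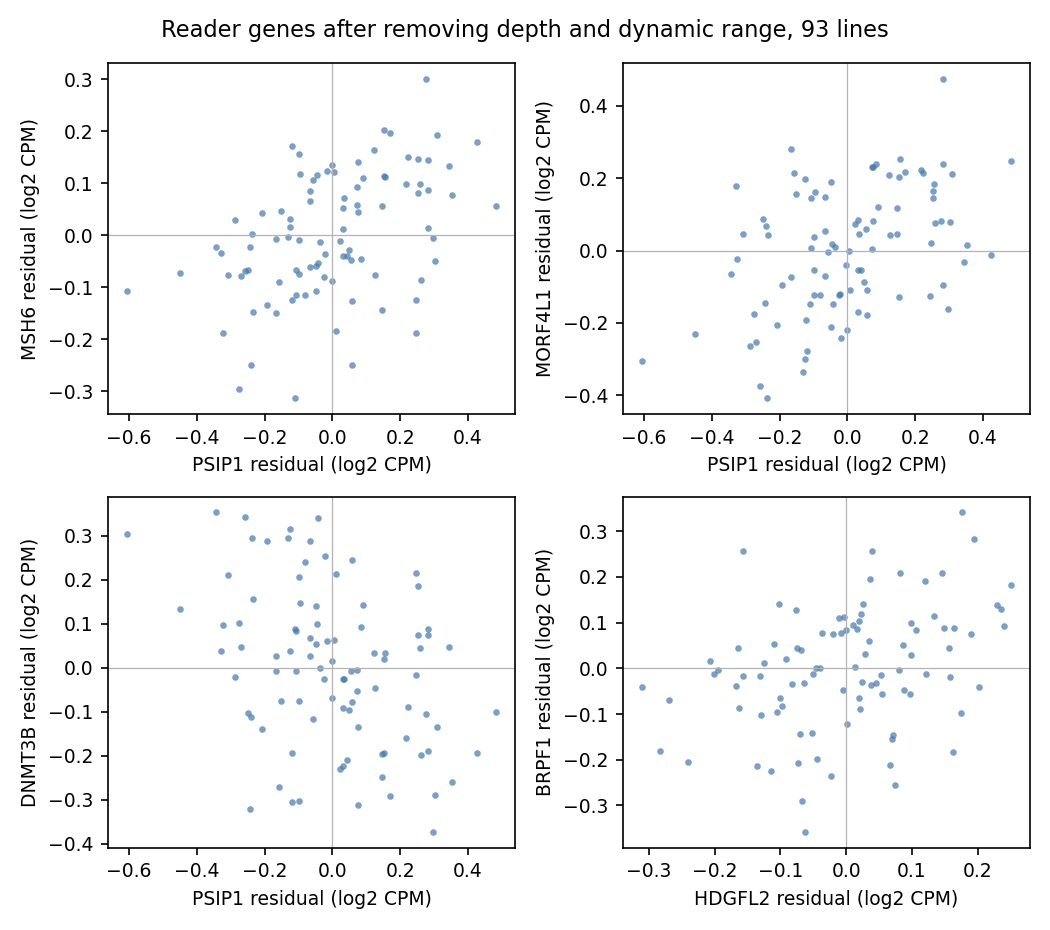
Residual log2 CPM of 4 called pairs, with 1 point per line. MSH6 and MORF4L1 rise with PSIP1, DNMT3B falls with it, and BRPF1 rises with HDGFL2.

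These shares were close to those of all features. The PSIP1 fit called 5 of 8 other readers, against 49.3% of all features, and the MORF4L1 fit called 5 of 8, against 43.4%. The DNMT3B fit called 4 of 8 (47% of all features), the MSH6 fit 3 of 8 (33%) and the ZMYND11 fit 3 of 8 (51%). The HDGFL2 and BRPF1 fits called 1 of 8 each, against 7.79% and 5.54% of all features. The DNMT3A and GLYR1 fits called 0 of 8, against 0.597% and 1.98%, and at an unadjusted p under 0.05 edgeR had 0 of 8 for DNMT3A and 1 of 8 for GLYR1. The pairs therefore describe these genes and do not set them apart from the rest of the table.

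The pairs depended on what was removed from the data. With 5 or 10 principal components as covariates edgeR called 0 of 36, and 4 and 2 pairs passed at an unadjusted p under 0.05. Few features of any kind were called in these fits. Depending on the reader, they were 0% to 4.13% of all features with 5 components and 0% to 1.53% with 10. Within the 47 deeper libraries 1 was called, DNMT3B with PSIP1 (r = -0.44, adjusted p = 0.0158). Within the 46 shallower 1 was called, PSIP1 with MORF4L1 (r = 0.51, adjusted p = 0.0178). Depending on the reader, 0% to 32.5% of all features were called in the deeper libraries and 0.0145% to 32.4% in the shallower ones. All 10 pairs had the same sign of r in each of these sets of libraries as in all 93. PSIP1 with MSH6, PSIP1 with MORF4L1, DNMT3B with PSIP1 and ZMYND11 with MORF4L1 were also called with DESeq2's size factors, with its Wald test, on the deposited scores and with the mean of 300 neighbouring rows as a covariate. DNMT3B with MORF4L1 was lost in each of these settings (adjusted p = 0.0570 to 0.286 over them), and the other 5 in some. In the deeper libraries PSIP1 and MORF4L1 had r = 0.13 and HDGFL2 and BRPF1 had r = 0.05, against 0.51 and 0.44 in the shallower ones.

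Many features outside the 9 were more alike to a reader than any other reader was. Leaving out 20 rows on either side, the highest r of a feature with each reader ran from 0.52 for GLYR1 to 0.75 for MORF4L1, which was reached by ENSG00000010244.18. ENSG00000124789.12 had r = 0.72 with PSIP1. The lowest values were -0.73 for ZMYND11 with ENSG00000143624.14 and -0.68 for DNMT3B with ENSG00000132510.10. Neither the files nor the reference tables pair these identifiers with names.

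Of the 18 rows next to a reader in the table, 8 moved with it, 2 moved against it and 8 were not called in that reader's fit. Those beside DNMT3A, DNMT3B and GLYR1 were among the 8 not called. Over all features the share called in these fits was 0.597% to 51%. MSH6 had r = 0.72 with the row after it, above its highest r of 0.67 with a feature outside 20 rows, and -0.26 with the row before it (adjusted p = 0.0478). PSIP1 had r = 0.60 with the row before it and -0.39 with the row after it. BRPF1 had 0.51 and 0.53, and HDGFL2 0.47 and 0.45, with the rows before and after. Whether neighbouring rows overlap and share reads was not tested.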

How the data were processed

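The deposited table holds read counts per feature made by the authors for 14000 features in 93 libraries. HISAT2 2.2.1, bedtools and hg38 are named, per the submitters' processing notes, and the counted interval was not given in the sources used here. A second table holds the deposited normal scores for these features, which served as an alternative. Columns with no sample numbered 0. The 9 genes were matched by identifier; 0 of 14000 identifiers matched the reference table, so lists of writers, erasers, partners and cell type markers were not used. Spans and upstream sequences came from RefSeq (GRCh38.p14) by symbol, and 9 of 9 matched.

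Counts were scaled with TMM factors in edgeR 4.0.16 (R 4.3.3) and expressed as log2 CPM with a prior count of 2. Tests used the 13915 features that reached 10 counts in 47 or more libraries, with Benjamini-Hochberg adjustment over all of them at 0.05, and with covariates for log2 library total and dynamic range. Variability was tested with the deviance goodness-of-fit test of edgeR against the trended dispersion. Slopes and pairs were tested with its quasi-likelihood test, and each pair's r used residual log2 CPM with 100000 two-sided permutations. The scripts were tested on counts simulated at the trended dispersion. The fit used for pairs recovered 12 of 100 planted slopes of 0.3 and 79 of 100 of 0.6, with 2 false calls. Slopes of the smaller size can thus be missed. The variability test recovered 94 of 100 features with an extra SD of 0.3 and 100 of 100 with 0.6, with 2 false calls. Alternatives used DESeq2 1.42.0 and limma 3.58.1, and figures Python 3.11.15 and matplotlib 3.10.9. Named features were the 9 genes and, of the features most and least alike to each, the 2 highest and the 2 lowest r. The genes, lists and tests were chosen with earlier results of these data known. The labels call each sample a separate line, so p-values measure the spread between lines with culture and technical differences.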

Additional observations from a re-analysis of the deposited data

How the results depend on the processing

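Of 340 recomputed values, 247 were classed as the same, 61 fell short of the threshold, 4 passed it, 15 moved further (7 of them percentiles of the level taken among 300 neighbouring rows) and 13 changed sign. Slopes and r were the same if they kept their direction and their side of the threshold. Levels and percentiles were the same if they moved by less than their spread. Counts of readers and pairs were the same within a set fold, so that 7 called pairs against 10 were still classed as the same. The number of called pairs was 0 with 5 and 0 with 10 principal components as covariates, and 24 with no covariates, against 10. It was 1 in the 46 shallower libraries, 1 in the 47 deeper ones, and 7 to 10 otherwise. The share of all features called per fit moved as well. It was 42.8% to 76.2% with no covariates and at most 4.13% with 5 components, against 0.597% to 51%. With 10 components r became 0.0168 for DNMT3B and MORF4L1, -0.265 for DNMT3B and ZMYND11, -0.0237 for MSH6 and MORF4L1, -0.0353 for PSIP1 and MSH6, 0.192 for PSIP1 and ZMYND11, and 0.0666 for ZMYND11 and MORF4L1. With 5 components it became -0.200 for DNMT3B and ZMYND11, -0.0670 for MSH6 and MORF4L1, and 0.177 for PSIP1 and ZMYND11, and with no covariates 0.00627 for the last. The cause was not tested. The number of readers going with dynamic range was 5 in the 46 shallower libraries and 5 with no depth covariate, against 8. It was 7 with the rows after 1900 up to 3200 left out, where DNMT3A was lost, 9 without the 10 libraries of lowest total, where MORF4L1 was gained, and 8 in the other alternatives. With no depth covariate the slope became -0.103 for DNMT3A and -0.146 for HDGFL2, and in the 46 shallower libraries -0.182 for MORF4L1; the cause was not tested. The number of variable readers was 1 with no covariates, where 3159 of 13915 features were called, against 0. The mean of 300 neighbouring rows and, for the slopes, the depth classes were added after the data were seen. Exon lengths in place of spans were not run, and alternatives for the writer, eraser and partner lists could not be run without symbols. No paired analysis was possible because all lines form 1 group. Depth limits DNMT3B most, with 29 counts in its shallowest library.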
